A study of Rattus norvegicus with 18 samples.

Results

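The members described here are 38 genes of fatty acid oxidation and its control by the PPAR receptors, listed by name and role with earlier results of these data known. They were read in cardiomyocytes of newborn rats, the cells whose beating drives the heart, among 9953 genes tested. The larger of 2 CodeLink array designs held a probe of its own for 35 of the 38 genes, and 33 passed the filter on low values. By role, 10 of the 38 listed genes take up or store fatty acids (7 tested), 4 form the carnitine shuttle (4 tested), 16 belong to mitochondrial beta-oxidation (14 tested), and 8 are grouped as regulators and other PPAR targets (8 tested). Fabp3, Acaa1a and Eci2 had no probe of their own, since Acaa1a and Eci2 were only on probes assigned to several genes. Fabp4 and Plin5 had one but stayed below the filter, with group means of 5.54 to 16.0 and 5.07 to 7.93 against a floor of 4.84. No member is a test of the series' question, whether factors secreted by stem cells induce proliferation of these cells.

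Fatty acids are the main fuel of the adult heart, while the heart at birth relies more on glucose and lactate and turns to fat as it matures. Fatty acids enter through transporters such as CD36, are activated to acyl-CoA, and either are stored in lipid droplets or pass into mitochondria as acylcarnitine. There each turn of beta-oxidation shortens the chain and hands electrons to the electron transfer flavoproteins. PPAR-alpha, PPAR-delta and PPAR-gamma are nuclear receptors that bind fatty acids, pair with a retinoid X receptor and switch on many genes of this pathway.

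Cells from the ventricles of day 1 rats were purified on Percoll gradients and kept for 24 h in cardiac medium, after which the time zero samples were extracted. In the other samples this medium was then brought to a 50% dilution with hESC medium, either unconditioned or conditioned by stem cells, and RNA was taken at 24 h or 48 h. FBS stayed at 5% and HS at 10% in all diluted samples. Strain, sex and the stem cell line are not named in the labels, and the time zero cells were not diluted, so a change from time zero holds both the time in culture and the dilution. The 12 arrays of the larger design carry the tests, 4 of time zero (replicates 3 to 6) and 2 of each medium at each time (replicates 2 and 3). The smaller design had 6 arrays, with 2 for time zero and 1 for every other condition, and was used for direction. Since separate cell preparations are not named in the labels, the p-values reflect the spread between these arrays, which may be technical.

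Levels are fluorescence intensities after each array was scaled to the same median of 96.84, and they are compared between arrays for 1 probe at a time. Changes are log2 differences ± SE from which the median over all 23694 tested probes was subtracted. That median was 0.09 between conditioned and unconditioned medium with both times pooled, 0.01 for the 24 h arrays and 0.18 for those of 48 h. From time zero it was 0.19 and 0.18 at 24 h and 0.01 and 0.16 at 48 h, in unconditioned and conditioned medium. A gene was called where limma, after Benjamini-Hochberg adjustment across all probes, gave an adjusted p under 0.05, a test of the change before that subtraction. The arrays of unconditioned 48 h replicate 2 and of time zero replicates 4 and 5 stood apart, with a ratio of upper to lower quartile of 22.4 to 25.7 against 38.7 to 47.8 on the other 9 arrays. Leaving these 3 arrays out kept only replicate 3 in unconditioned medium at 48 h. That array was then assumed to vary like the others, in every comparison that holds this group. All 16 cardiomyocyte markers with a probe were above the filter and none was at the floor in any group. The defining genes of other cell types were present too. The summed level of 12 endothelial markers was 1710 to 2370 at time zero. At 48 h it was 3490 to 5420 in unconditioned and 4510 to 4830 in conditioned medium. In the same order of groups the sum was 8070 to 13800, 17000 to 23100 and 23100 to 24100 for 11 fibroblast markers. For 11 leukocyte markers it was 1760 to 2780, 1840 to 2580 and 1530 to 1560. Of the fibroblast and leukocyte markers 1 and 4 were at the floor in conditioned medium at 48 h, and 3 and 2 in unconditioned medium.

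The promoters of Angptl4, Plin2 and Acot1 are shown because, with each gene read from its probe of highest mean, these were the members called in at least 1 comparison. Eci1 is set beside them as a beta-oxidation gene whose window holds a nuclear receptor half-site. Each window is the 250 bases before a RefSeq transcript start on build GRCr8, 5′ to 3′ on the gene's strand, and Plin2 has 2 starts. Capitals mark, on either strand, the half-site AGGTCA, the hypoxia response core ACGTG, which also lies in an E-box of that core preceded by a C, and the TATA box TATAAA.
Angptl4, chr7:15258682-15258931, minus strand: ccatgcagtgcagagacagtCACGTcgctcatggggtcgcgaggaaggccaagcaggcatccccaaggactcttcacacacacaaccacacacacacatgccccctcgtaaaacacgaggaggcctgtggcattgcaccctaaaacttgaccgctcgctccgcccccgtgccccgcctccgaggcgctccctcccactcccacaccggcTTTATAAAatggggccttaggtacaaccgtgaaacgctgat
Plin2, chr5:106229019-106229268, minus strand: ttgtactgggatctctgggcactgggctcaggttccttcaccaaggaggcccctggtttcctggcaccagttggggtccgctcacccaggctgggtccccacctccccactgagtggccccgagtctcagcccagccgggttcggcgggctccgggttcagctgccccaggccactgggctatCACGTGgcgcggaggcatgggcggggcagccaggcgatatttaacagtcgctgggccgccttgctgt
Plin2, chr5:106228538-106228787, minus strand: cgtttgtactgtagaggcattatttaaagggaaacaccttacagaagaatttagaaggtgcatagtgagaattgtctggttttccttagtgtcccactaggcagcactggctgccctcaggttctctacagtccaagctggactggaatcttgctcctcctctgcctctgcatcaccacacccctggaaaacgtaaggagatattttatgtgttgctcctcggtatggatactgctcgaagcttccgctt
Acot1, chr6:109367024-109367273, plus strand: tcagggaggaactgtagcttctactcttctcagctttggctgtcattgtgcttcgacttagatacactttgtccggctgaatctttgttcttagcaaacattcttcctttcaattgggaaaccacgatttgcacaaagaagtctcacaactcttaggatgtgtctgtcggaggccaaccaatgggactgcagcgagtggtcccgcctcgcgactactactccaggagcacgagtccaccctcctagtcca
Eci1, chr10:13961000-13961249, plus strand: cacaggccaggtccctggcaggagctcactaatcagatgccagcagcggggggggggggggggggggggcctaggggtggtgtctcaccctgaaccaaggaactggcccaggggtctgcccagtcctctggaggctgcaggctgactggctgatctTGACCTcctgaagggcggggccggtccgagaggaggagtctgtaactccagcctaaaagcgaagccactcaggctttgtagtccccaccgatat

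The windows of 29 of the 38 members were matched in RefSeq and searched on both strands. The PPAR response element in its strict form, AGGTCA repeated after a gap of 1 base, was in 0 of these 29 and in 0.0583% of 27457 genes. Its half-site AGGTCA was in 5 of 29 members (Slc27a1, Plin5, Acadvl, Eci1 and Ucp3) against 14.8% of all genes, and in none of the windows of the called members. TCAAGGTCA, bound by estrogen-related receptors and holding the half-site within it, was in 0 of 29 against 0.397%. ACGTG was in 6 of 29 members (Cd36, Plin2, Angptl4, Etfa, Etfdh and Ucp3) against 18.1% of all genes. In the first Plin2 window it lay 67 to 62 bases before the start, within CACGTG, and in Angptl4 230 to 226 bases before it, on the other strand. TATAAA was in 2 of 29 members, Cd36 and Angptl4, against 14.1%, and lay 41 to 34 bases before the Angptl4 start, once on each strand in overlap. These matches describe letters in a short window and say nothing of binding.

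Among the genes of uptake and storage, every conditioned array was above every unconditioned one for Angptl4 and Plin2. With Acot1 these were 3 of the 33 members, against 8.63% of all probes. Angptl4 was the only one of the 33 called for the medium over both times. Angptl4 encodes a secreted inhibitor of lipoprotein lipase and is a classical PPAR target. Its level was 879, 364, 341 and 863 on the 4 time zero arrays. It was 1770 and 2500 in unconditioned medium at 24 h and 752 and 1360 at 48 h. In conditioned medium it was 5070 and 5410 at 24 h and 4330 and 5150 at 48 h. The 4 conditioned arrays were thus the highest of the 12, with no overlap with any other group. Over both times Angptl4 rose by 1.68 ± 0.33 in conditioned against unconditioned medium (limma, adjusted p = 0.011), where 0.92% of all probes were called in either direction. The change was 1.31 ± 0.47 at 24 h (adjusted p = 0.61) and 2.05 ± 0.47 at 48 h (adjusted p = 0.086), and the difference between these, 0.73 ± 0.66, was not called in limma either (adjusted p = 1.0). None of the 33 members was called at 24 h or at 48 h, where 0.245% and 0.148% of all probes were, with 2 and 4 members at an unadjusted p under 0.05. Such a p was found in limma for 1254 and 2060 of the 23694 probes. In limma Angptl4 was called at 48 h with quantile normalization, with scaling to the 75th percentile and without the 3 arrays that stood apart (1.92, 2.05 and 1.86), where 0.498%, 0.46% and 0.861% of all probes were called higher. At 24 h the first and last of these called it (1.26 and 1.31), as they did Plin2 (0.98 in both), where 0.553% and 1.84% of all probes were called higher.

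The call for the medium rests on single arrays. It was lost without conditioned 24 h replicate 2 or 3, unconditioned 24 h replicate 2 or conditioned 48 h replicate 3, with no filter on level and with no intensity trend. Over all 21 alternatives the change stayed between 1.57 and 1.79 and limma's adjusted p between 0.00018 and 0.12.

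Against time zero Angptl4 rose by 3.06 ± 0.41 in conditioned medium at 24 h (limma, adjusted p = 0.00014) and by 2.93 ± 0.41 at 48 h (adjusted p = 0.00011). In unconditioned medium it rose by 1.74 ± 0.41 at 24 h (limma, adjusted p = 0.029), a call that was lost in 10 of 21 alternatives, and at 48 h the change was 0.85 ± 0.41 (adjusted p = 0.36), called with quantile normalization alone of the 3 settings named above (0.88 ± 0.24, adjusted p = 0.04). All comparisons against time zero share the same 4 arrays. The lower level in unconditioned medium at 48 h than at 24 h, -0.88 ± 0.47, was not called in limma (adjusted p = 0.94), although the arrays did not overlap.

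Plin2, which coats lipid droplets, had levels of 2670, 1020, 1500 and 2680 at time zero. In unconditioned medium the 24 h arrays read 3020 and 3900 and the 48 h arrays 3040 and 5030. In conditioned medium the 24 h arrays read 7090 and 6510 and the 48 h arrays 6820 and 7660. Every diluted culture was above every time zero array, and every conditioned array was above every unconditioned one. The change with the medium over both times, 0.85 ± 0.31, was not called in limma (adjusted p = 0.22). It was called with quantile normalization (0.76 ± 0.14, adjusted p = 0.009), where 2.11% of all probes were called higher, and without the 3 arrays that stood apart (0.77 ± 0.14, adjusted p = 0.0082), where 4.22% were. Scaling to the 75th percentile called it too (limma, 0.85 ± 0.19, adjusted p = 0.033). Against time zero Plin2 rose by 1.72 ± 0.38 in conditioned medium at 24 h (limma, adjusted p = 0.0081) and by 1.83 ± 0.38 at 48 h (adjusted p = 0.0033). Leaving out either conditioned array of the same time ended each of these calls, and so did the absence of a filter at 24 h. In unconditioned medium the changes from time zero were 0.73 ± 0.38 and 1.09 ± 0.38, not called (limma, adjusted p = 0.42 and 0.16). The one at 48 h was called with quantile normalization (1.11), with scaling to the 75th percentile (1.09) and without the 3 arrays that stood apart (0.92), with limma's adjusted p at 0.0017, 0.016 and 0.027, where 5.16%, 4.78% and 3.86% of all probes were called higher.

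**Figure D1:**
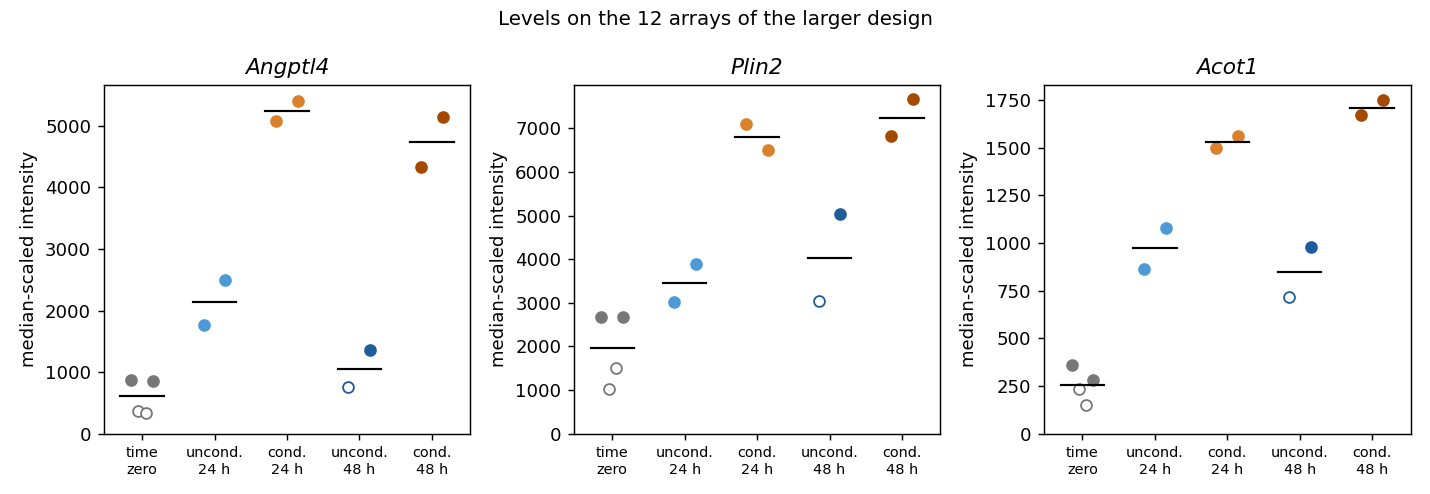
Median-scaled fluorescence intensity (linear axis from 0) of Angptl4, Plin2 and Acot1 on the 12 arrays of the larger design, by group. Points are arrays, bars are group means, and open points are the 3 arrays that stood apart; the 4 conditioned arrays are the highest of the 12 for each gene.

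Cd36, the fatty acid translocase of the cell surface, showed the opposite pattern from time zero. Its level was 1170, 711, 1080 and 1960 at time zero and 543 to 724 on the 8 arrays of diluted cultures, so that only 1 of these 8 exceeded the lowest time zero array. The changes from time zero ran from -1.18 in conditioned to -0.99 in unconditioned medium, both at 48 h, each with an SE of 0.34. None of these was called in limma (adjusted p = 0.094 to 0.33). A lower Cd36 was called in all 4 comparisons with quantile normalization (-1.27 to -1.01). Without the 3 arrays that stood apart, which kept only replicate 3 of unconditioned 48 h, the changes were -1.37 to -1.19. Of all probes 0.468%, 3.18%, 4.73% and 5.12% were called lower with the former in unconditioned and conditioned medium at 24 h and then at 48 h, and 0.975%, 5.03%, 2.97% and 8.8% with the latter. Scaling to the 75th percentile called it in the same 4, where 0.333%, 2.95%, 4.11% and 4.82% of all probes were called lower. A second Cd36 probe fell by 1.62 ± 0.39 in conditioned medium at 48 h against time zero (limma, adjusted p = 0.029). Between the media Cd36 differed by -0.05 ± 0.28 over both times (limma, adjusted p = 0.98).

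Lpl, lipoprotein lipase, which frees fatty acids from circulating triglyceride and is the enzyme that Angptl4 inhibits, had levels of 137, 59.5, 152 and 176 at time zero. They were 291 and 266 in conditioned medium at 48 h, above every other array. That change, 1.03 ± 0.39, was not called in limma (adjusted p = 0.08), and was called without the 3 arrays that stood apart (0.88 ± 0.24, adjusted p = 0.033), where 8.53% of all probes were called higher. For Slc27a1, a fatty acid transport protein, the medium effect over both times was 0.33 ± 0.26 (limma, adjusted p = 0.63). Acsl1, the main heart enzyme that activates fatty acids to acyl-CoA, gave 0.08 ± 0.29 (adjusted p = 0.9), and the hormone-sensitive lipase Lipe 0.15 ± 0.31 (adjusted p = 0.85). The median over the 7 tested members of this role was 0.15 for the medium over both times, with 6 above the median of all probes, against 50% of all probes by construction.

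Of the 8 regulators and other PPAR targets, Acot1 was the one called, and it was called in all 4 comparisons with time zero. Acot1 is a cytosolic thioesterase that releases fatty acids from acyl-CoA and is a PPAR-alpha target. Its levels were 359, 236, 151 and 284 at time zero. In unconditioned medium the 24 h arrays read 864 and 1080 and the 48 h arrays 717 and 982. In conditioned medium the 24 h arrays read 1500 and 1560 and the 48 h arrays 1670 and 1750. The 3 conditions did not overlap, with time zero lowest and conditioned medium highest. In unconditioned medium Acot1 rose by 1.79 ± 0.33 at 24 h and 1.76 ± 0.33 at 48 h (limma, adjusted p = 0.006 and 0.0059). In conditioned medium it rose by 2.46 ± 0.33 and 2.64 ± 0.33 (limma, adjusted p = 0.00015 and 5.5e-05). Both conditioned calls held in 21 of 21 alternatives, the unconditioned ones were lost without replicate 3 of the same group, and the one at 24 h also with no filter. The medium effect over both times, 0.76 ± 0.27, was not called in limma (adjusted p = 0.2). It was called with scaling to the 75th percentile, where 2.24% of all probes were called higher, and without the 3 arrays that stood apart (0.75 ± 0.15, adjusted p = 0.014). The Acot genes are close relatives, and whether the Acot1 probe also binds their transcripts was not tested. The mitochondrial relative Acot2 changed by 0.15 ± 0.30 with the medium over both times (limma, adjusted p = 0.85).

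Background shares for the comparisons with time zero differed with the group. Of the 33 members 2 were called in unconditioned medium at 24 h, where 0.815% of all probes were, and 3 in conditioned medium at 24 h, where 3.17% were. At 48 h it was 1 of 33 in unconditioned medium against 2.9%, and 3 of 33 in conditioned medium against 6.47%. All of these calls were increases, of Angptl4, Plin2 or Acot1. At an unadjusted p under 0.05 limma gave 5 of the 33 members in each comparison but unconditioned medium at 48 h, which had 6. In unconditioned medium 2341 of the 23694 probes had such a p at 24 h and 3187 at 48 h. In conditioned medium 3628 and 4575 did.

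**Figure D2:**
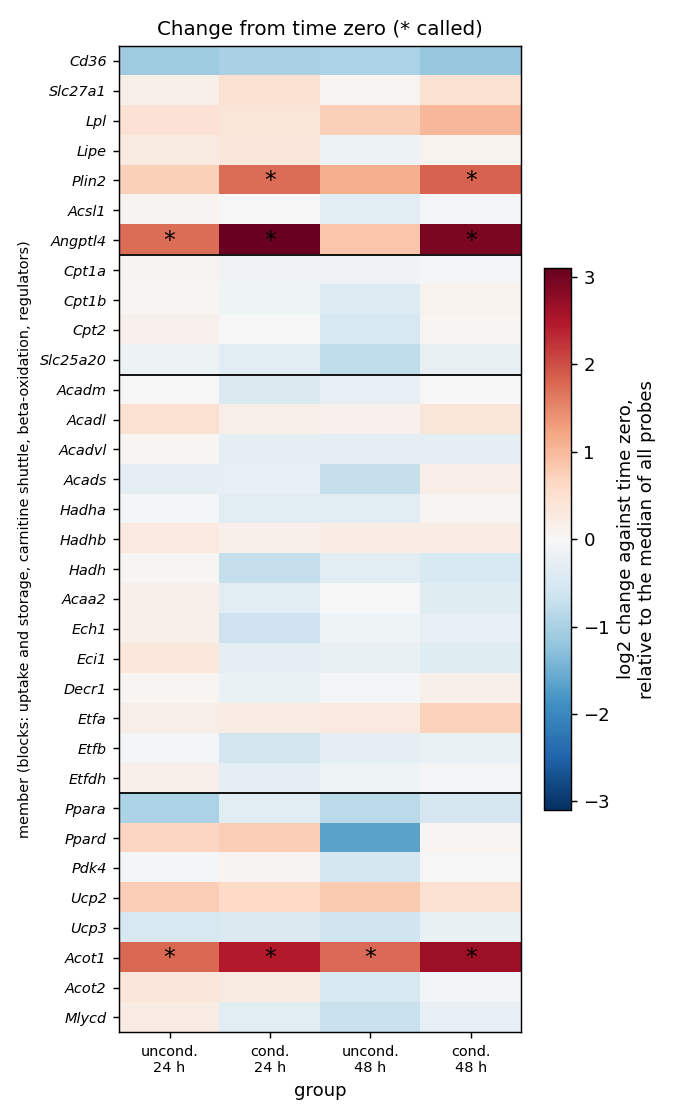
Log2 change from time zero, relative to the median of all probes, of the 33 tested members (rows, in blocks by role) in each medium at each time (columns); colour gives the size and direction and stars mark limma calls. Stars are on Angptl4, Plin2 and Acot1, and the Cd36 row is between -1.18 and -0.99 throughout.

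The receptors themselves were measured less firmly. Ppara had group means of 59.8 to 109 and Ppard of 12.6 to 75.1. For Ppara the medium effect over both times was 0.47 ± 0.43 (limma, adjusted p = 0.71), and a second probe gave 0.34 ± 0.37 (adjusted p = 0.75). For Ppard the levels were 73.8, 16.1, 34.3 and 56.0 at time zero, 78.3 and 62.9 in unconditioned medium at 24 h and 10.6 and 14.6 there at 48 h. They were 70.9 and 79.3 in conditioned medium at 24 h and 41.7 and 49.3 at 48 h. Unconditioned medium at 48 h was thus below every other array. The medium effect at 48 h, 1.68 ± 0.73, was not called in limma (adjusted p = 0.47). Its change from time zero in that group, -1.65 ± 0.63, was not called in limma either (adjusted p = 0.23). Without the 3 arrays that stood apart, which kept only replicate 3 of that group, the change was -2.13.

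The remaining regulators were not called for the medium over both times in limma. Pdk4, a kinase that shuts down pyruvate dehydrogenase and so spares glucose, changed by 0.33 ± 0.41 (adjusted p = 0.79). The mitochondrial carriers Ucp2 and Ucp3 changed by -0.26 ± 0.30 and 0.20 ± 0.33 (limma, adjusted p = 0.89 and 0.83). Mlycd, which degrades malonyl-CoA, the inhibitor of Cpt1, changed by -0.10 ± 0.30 (limma, adjusted p = 0.99). Against time zero Ucp2 was at 0.48 to 0.81 in all 4 groups, with group means of 2790 at time zero and 4110 to 5150 afterwards. None of these Ucp2 changes was called in limma (adjusted p = 0.31 to 0.37), and those of unconditioned medium were called with quantile normalization, at 0.61 ± 0.14 for 24 h and 0.82 ± 0.14 for 48 h (adjusted p = 0.029 and 0.0032), where 1.82% and 5.16% of all probes were called higher. Scaling to the 75th percentile called the one at 48 h (limma, 0.81 ± 0.21, adjusted p = 0.036).

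The carnitine shuttle moves acyl groups across the mitochondrial membranes. Cpt1b, the muscle form of its first enzyme, had levels of 8200, 7080, 4750 and 6230 at time zero. In unconditioned medium the 24 h arrays read 8510 and 6880 and the 48 h arrays 4980 and 4730. In conditioned medium the 24 h arrays read 6930 and 6400 and the 48 h arrays 7770 and 7750. The media did not overlap at 48 h and did at 24 h. The medium effect was -0.21 ± 0.34 at 24 h and 0.50 ± 0.34 at 48 h, neither called in limma (adjusted p = 1.0 and 0.61), and 0.15 ± 0.24 over both times (adjusted p = 0.79). Slc25a20, the carnitine-acylcarnitine carrier, gave -0.22 ± 0.43 at 24 h and 0.54 ± 0.43 at 48 h (limma, adjusted p = 1.0 and 0.68). Cpt2, which returns the acyl group to CoA in the matrix, gave -0.13 ± 0.43 and 0.52 ± 0.43 (limma, adjusted p = 1.0 and 0.7). For Cpt1a, the liver form, the values were -0.21 ± 0.40 and 0.02 ± 0.40 (limma, adjusted p = 1.0 and 0.94).

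All 4 shuttle genes lay under the all-probe median at 24 h (their median -0.21) and above it at 48 h (0.51), and 3 had both conditioned arrays above both unconditioned ones at 48 h, as did 29.9% of all probes. In unconditioned medium at 48 h all 4 were below time zero (median -0.46). Without the 3 arrays that stood apart the median at 48 h was 0.36 between the media, with 3 of 4 above, and -0.59 for unconditioned medium against time zero, with 3 of 4 below. Both medians then rest on replicate 3 alone for unconditioned 48 h. With quantile normalization the first was 0.37, with 3 of 4 above. None of the 4 was called for the medium at either time, and none had an unadjusted p under 0.05 in limma.

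Within beta-oxidation no gene was called in any of the 10 comparisons with the median scaling and all 12 arrays. Against time zero, quantile normalization called 6 of 14 lower in conditioned medium at 24 h (Hadh, Ech1, Acadm, Acaa2, Eci1 and Etfdh, -0.91 to -0.50) and 3 at 48 h (Hadh, Acaa2 and Eci1, -0.64 to -0.62). Without the 3 arrays that stood apart limma called 4 and 2 there, and scaling to the 75th percentile 1 (Hadh) and 0. Acads was called lower in unconditioned medium at 48 h with both scalings (limma, -0.77 and -0.74). The shares of all probes called lower with these settings are those given for Cd36. At 24 h, 13 of the 14 tested enzymes and electron carriers lay under the all-probe median in conditioned against unconditioned medium, with a median of -0.40. In 9 of 14 both conditioned arrays were below both unconditioned ones, against 22.4% of all probes. None of the 14 was called and none had an unadjusted p under 0.05 in limma. At 48 h the same 14 had a median of 0.07, with 8 above. With quantile normalization that median was -0.06, with 5 of 14 above. The difference between the times was above the median for 14 of 14 (median 0.53), with no call among any of the 23694 probes in limma, 0 members and 518 probes at an unadjusted p under 0.05. That count was 12 of 14 with quantile normalization and 13 of 14 without the 3 arrays that stood apart.

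Hadh, a dehydrogenase of the third step of the cycle, had levels of 3920, 1920, 1970 and 3000 at time zero, and at 24 h 2850 and 3200 in unconditioned against 1550 and 1970 in conditioned medium. At 48 h they were 1600 and 2580 in unconditioned against 1870 and 2310 in conditioned medium, where the media overlapped. The medium effect at 24 h, -0.80 ± 0.40, was not called in limma (adjusted p = 0.99), and was called with quantile normalization (-0.79 ± 0.17, adjusted p = 0.044), where 0.717% of all probes were called lower. For Ech1, an auxiliary isomerase for unsaturated chains, the levels at 24 h were 13100 and 18200 in unconditioned against 9220 and 8420 in conditioned medium. Its change of -0.82 ± 0.41 was the lowest of the 33 members at 24 h (limma, adjusted p = 1.0). The time zero arrays ran from 8840 to 19000, so that 1 of these conditioned arrays lay within them and 1 just below. At 48 h the media overlapped, at 8370 and 14900 against 11100 and 12000, a change of -0.13 ± 0.41.

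Eci1, another isomerase for unsaturated chains, had 9080 and 11600 in unconditioned against 6460 and 6860 in conditioned medium at 24 h, a change of -0.64 ± 0.40 (limma, adjusted p = 1.0). Both conditioned arrays lay within the time zero range of 5730 to 9380. At 48 h the media overlapped, at 4260 and 8930 against 5880 and 6620, a change of -0.16 ± 0.40. For Acaa2, the thiolase of the last step, the levels were 10500 and 11500 against 7190 and 8430, a change of -0.51 ± 0.41 (limma, adjusted p = 1.0). Over both times the changes of these 4 were -0.46 ± 0.28 (Hadh), -0.47 ± 0.29 (Ech1), -0.39 ± 0.28 (Eci1) and -0.46 ± 0.29 (Acaa2), none called in limma (adjusted p = 0.69 to 0.76). With quantile normalization these 4 were called lower over both times, at -0.52, -0.51, -0.44 and -0.51 (adjusted p = 0.0074 to 0.037), where 1.78% of all probes were called lower. Without the 3 arrays that stood apart Ech1, Eci1 and Acaa2 were called lower, at -0.57, -0.55 and -0.53 (limma), where 3.58% of all probes were.

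Acads, the dehydrogenase of short chains, had the smallest p of the 14 for the medium over both times, and lay in the other direction. Its levels were 2000, 1240, 1060 and 2340 at time zero. In unconditioned medium the 24 h arrays read 1510 and 1470 and the 48 h arrays 696 and 1310. In conditioned medium the 24 h arrays read 1600 and 1410 and the 48 h arrays 2150 and 1900. The media overlapped at 24 h and did not at 48 h, when the lower unconditioned array was one of those that stood apart. The change was 0.00 ± 0.41 at 24 h, 0.91 ± 0.41 at 48 h and 0.46 ± 0.29 over both times, none called in limma (adjusted p = 1.0, 0.46 and 0.53). The dehydrogenases of medium, long and very long chains, Acadm, Acadl and Acadvl, gave -0.43, -0.31 and -0.37 at 24 h and 0.23, 0.22 and -0.01 at 48 h.

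The trifunctional protein, which carries out the later steps for long chains, is made of the products of Hadha and Hadhb. They gave -0.28 ± 0.37 and -0.16 ± 0.39 at 24 h, and 0.37 ± 0.37 and -0.04 ± 0.39 at 48 h. Decr1, the reductase for chains with several double bonds, gave -0.28 ± 0.38 and 0.17 ± 0.38 at these times. Of the electron carriers, Etfa gave 0.02 ± 0.50, Etfb -0.53 ± 0.39 and the dehydrogenase Etfdh -0.49 ± 0.37 at 24 h. At 48 h the values of these carriers were 0.39, 0.06 and 0.07. None of them was called (limma, adjusted p = 0.72 to 1.0).

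**Figure D3:**
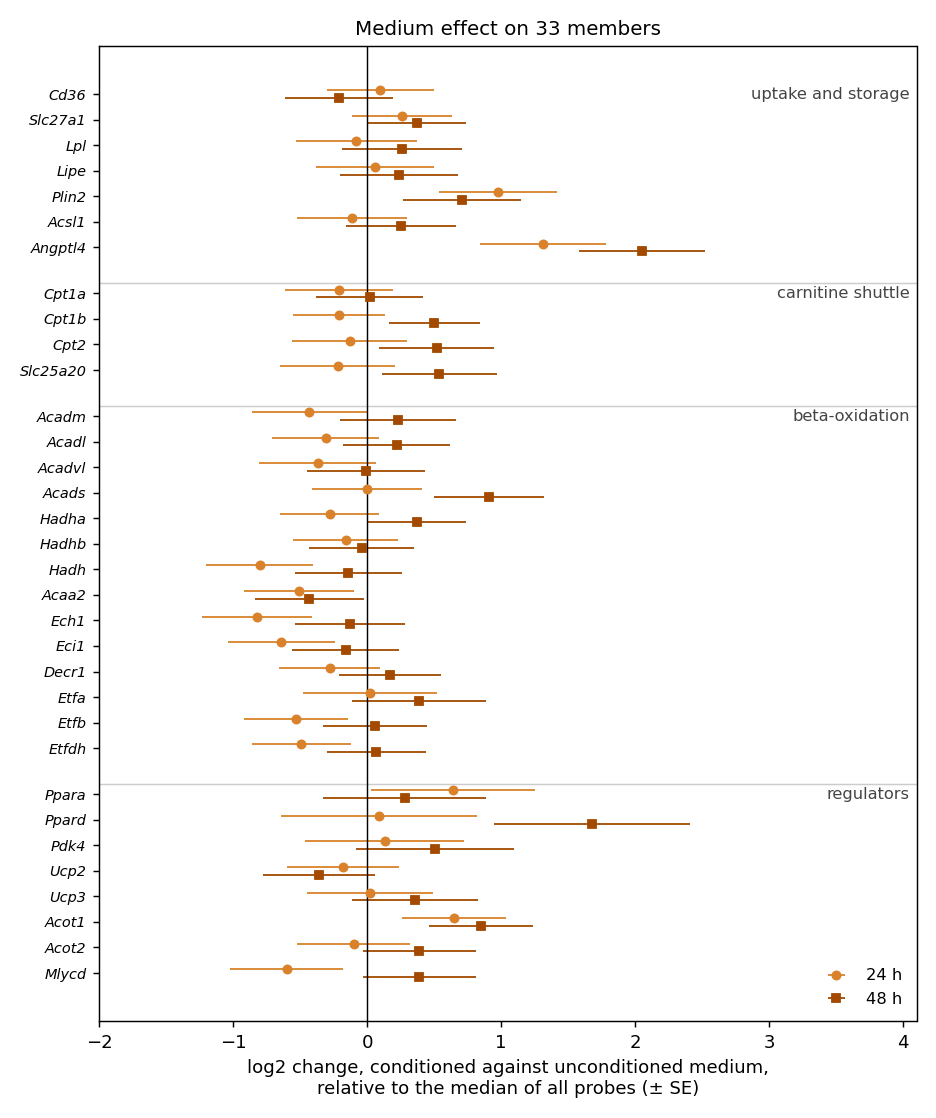
Log2 change in conditioned against unconditioned medium, relative to the median of all probes, ± SE from limma (2 against 2 arrays at each time) for the 33 tested members, in blocks by role. Circles are 24 h and squares 48 h; beta-oxidation genes lie mostly left of 0 at 24 h and around 0 at 48 h, and Angptl4 is at 1.31 and 2.05.

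By array, the median beta-oxidation gene differed from its time zero mean by 0.17 and 0.06 in unconditioned medium at 24 h, and by -0.37 and -0.27 in conditioned medium. At 48 h it differed by -0.15 and -0.02 in unconditioned and by 0.02 and -0.04 in conditioned medium. The 4 time zero arrays ran from -0.15 to 0.14, so only the conditioned 24 h arrays lay outside that range on the low side. The place of unconditioned medium at 24 h against time zero moved with the scaling. Its median change over these genes was 0.10, with 10 of 14 above, and with quantile normalization -0.14, with 5 of 14 above. The median shuttle gene was at -0.55 and -0.45 in unconditioned medium at 48 h, below every other array, with time zero at -0.22 to 0.21. From 24 h to 48 h, 13 of 14 beta-oxidation genes lay under the all-probe median in unconditioned medium (median -0.28, 7 without overlap against 21.4% of all probes). In conditioned medium 12 of 14 lay above it (median 0.31, 9 without overlap against 25.6%). No member was called between the times in either medium, where 0% and 0.00422% of all probes were called, and 4 and 0 members had an unadjusted p under 0.05 in limma. Such a p was found for 1234 and 598 of the 23694 probes.

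**Figure D4:**
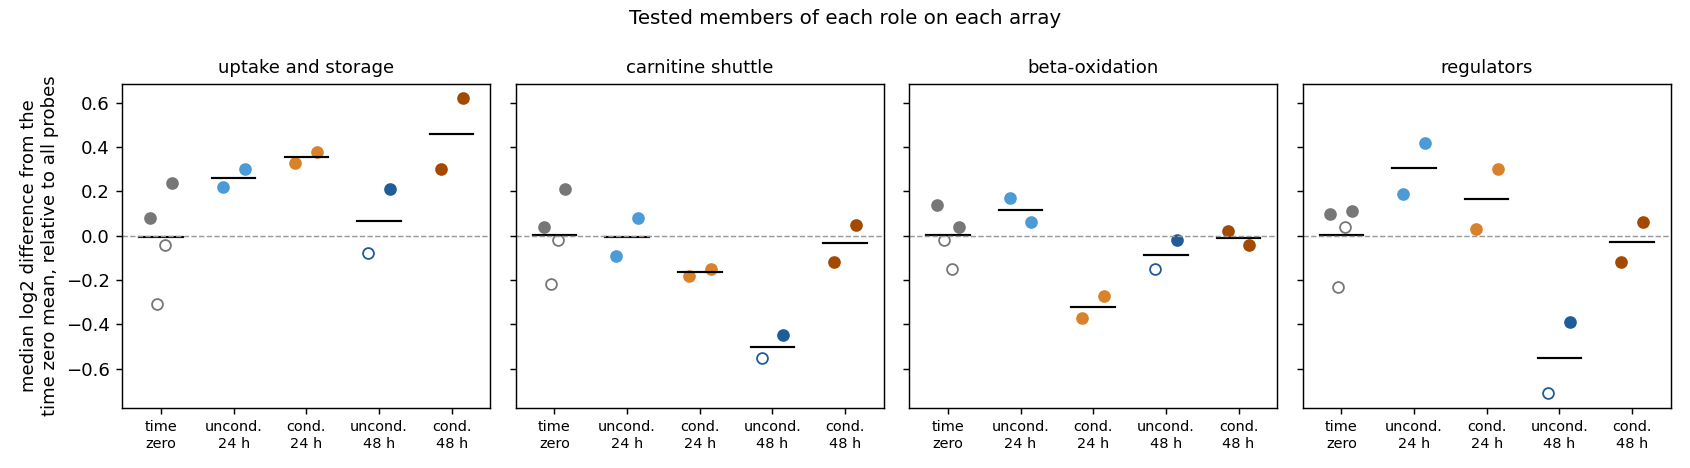
Median over the tested members of each role of the log2 difference from the time zero mean, on each of the 12 arrays (points) with group means (bars); open points are the 3 arrays that stood apart and the dashed line is 0. Conditioned 24 h arrays are the lowest for beta-oxidation, at -0.37 and -0.27, and unconditioned 48 h arrays for the carnitine shuttle, at -0.55 and -0.45.

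Cardiomyocyte markers, like most beta-oxidation genes, were lower in conditioned than in unconditioned medium at 24 h. All 16 tested markers lay under the all-probe median in that comparison (median -0.41, none called in limma). Their summed level was 307000 to 363000 against 415000 to 441000. At time zero the sum was 223000 to 443000, a range that holds both. Against time zero at 24 h, 14 of 16 markers were above the all-probe median in unconditioned medium (median 0.33) and 6 of 16 in conditioned medium (median -0.09). The medians of the beta-oxidation genes there were 0.10 and -0.31. Between the media at 48 h, 7 of 16 markers were above (median -0.07). Their part in the lower beta-oxidation values was not tested. Of 8 smooth muscle and pericyte markers 2 were above between the media at 24 h (median -0.63, none called in limma). The summed level over the 9 that had a probe was 35300 to 38500 in conditioned against 50700 to 57400 in unconditioned medium. At time zero it was 18700 to 33100. Against time zero the median of these markers at 24 h was 0.02 in conditioned and 0.65 in unconditioned medium. Their part was not tested either. In bulk RNA, fewer cardiomyocytes and less of these RNAs per cell cannot be told apart. Of the endothelial markers limma called 7 of 12 higher at 48 h than at time zero in unconditioned and 8 of 12 in conditioned medium, with 1 (Kdr) lower in each. None was called between the media or between 24 h and 48 h. The marker called between the media was the leukocyte gene Cd74, the invariant chain of MHC class II. Its levels were 88.2 to 494 at time zero, 51.0 to 85.7 in unconditioned medium, and 6.63 on 1 and at the floor on 3 of the 4 conditioned arrays. It fell by 3.79 ± 0.54 over both times (limma, adjusted p = 0.0014), and with 3 arrays at the floor the size follows from where the floor was set. The median of the 8 leukocyte markers tested was -0.28. Against time zero at 48 h, 3 of 6 fibroblast and 3 of 8 smooth muscle and pericyte markers were called higher in unconditioned medium, and 2 and 3 in conditioned medium. Cspg4 of the latter list was called higher in all 4 groups (limma, 1.95 to 2.44). Of the cardiomyocyte markers Myl7 was called lower in conditioned medium at 48 h (limma, -1.70, adjusted p = 0.0049). Of adipocyte markers, which share Pparg with the pathway, 6 of 8 had a probe, with a summed level of 512 to 563 at time zero, and at 48 h 629 to 862 in unconditioned against 941 to 1140 in conditioned medium, while of the 4 tested 1 was above the all-probe median between the media over both times (median -0.35). The part of these cells in the changes from time zero of Angptl4, Plin2 and Acot1 was not tested.

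Beyond the 38 members, 92 other genes of the pathway were read from 5 lists, of which 74 were tested. Of these 9 were called in at least 1 of the 10 comparisons, as were 3 of the 33 members, against 8.02% of all probes. Among the partners and other targets of the receptors, Pparg, the receptor best known from fat cells, had levels of 169, 70.5, 96.0 and 166 at time zero. They were 240 and 381 in unconditioned medium at 24 h and 191 and 397 at 48 h, and 578 and 584 in conditioned medium at 24 h and 588 and 807 at 48 h. The conditioned arrays were again the highest of the 12. Pparg rose from time zero by 2.12 ± 0.40 in conditioned medium at 24 h and 2.39 ± 0.40 at 48 h (limma, adjusted p = 0.0025 and 0.00063), and leaving out either conditioned array of 24 h ended the first call. Between the media it differed by 1.05 ± 0.33 over both times, not called (limma, adjusted p = 0.14).

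Rxrg, a retinoid X receptor, was the only one of these 74 called for the medium over both times. Its levels were 399 and 523 in unconditioned medium at 24 h and 196 and 421 at 48 h, against 143 and 134, and 125 and 153, in conditioned medium. It fell by 1.47 ± 0.31 (limma, adjusted p = 0.043), a call lost in 10 of 21 alternatives, 7 of them leaving out 1 array. Klf15, a transcription factor of muscle lipid use, was at 119 and 110 in unconditioned and 5.58 and 24.5 in conditioned medium at 24 h, where 1 array lay close to the floor of 4.84. It fell by 3.30 ± 0.62 there (limma, adjusted p = 0.026), a call lost in 8 of 20 alternatives over which the change ran from -4.36 to -1.38, and fell by 3.68 ± 0.53 against time zero (adjusted p = 0.00082), where the alternatives gave -4.74 to -1.65. At 48 h it was at 46.2 and 72.9 against 45.3 and 53.1, a change of -0.42 ± 0.62 that was not called (limma, adjusted p = 0.96).

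Among other lipid handling genes (18 tested), the acyl-CoA synthetase Acsl6 fell by 2.45 ± 0.37 and Acsl3 rose by 1.28 ± 0.36 in conditioned medium at 48 h against time zero (limma, adjusted p = 0.00088 and 0.021). Cidea, a lipid droplet protein, fell by 1.79 ± 0.34 in unconditioned medium at 48 h (limma, adjusted p = 0.0069), a call lost without replicate 2 of that group and with no filter. Among 16 other mitochondrial enzymes, the ketone body enzyme Bdh1 rose by 1.22 ± 0.33 at 24 h and 1.97 ± 0.33 at 48 h in conditioned medium (limma, adjusted p = 0.023 and 0.00049). Its partner in ketone use, Oxct1, rose by 1.06 ± 0.30 and the branched-chain dehydrogenase Acadsb by 1.16 ± 0.34 in conditioned medium at 48 h (limma, adjusted p = 0.018 and 0.025). The Acadsb, Oxct1 and Acsl3 calls were each lost without either conditioned 48 h array, and that of Bdh1 at 24 h without either conditioned 24 h array or time zero replicate 3. With no filter the calls of Acadsb, Acsl3 and Bdh1 at 24 h were lost too, and with no intensity trend those of Acsl3 and Bdh1 at 24 h. That of Acsl3 was also lost without time zero replicate 5. Averaged over its probes, Acadsb changed by 0.54 in place of 1.16 and was not called. No gene was called among 11 of carnitine and malonyl-CoA metabolism or 14 of peroxisomal beta-oxidation.

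The smaller design had a probe for 24 of the 38 members, and 16 could be compared with no array at the floor, 1 array per medium and time and no test. Angptl4, Plin2 and Acot1 were not among them. Of the 16, 14 had the same sign as on the larger design for the medium effect at 24 h, 11 at 48 h and 12 over both times. All 7 beta-oxidation genes compared lay under the all-probe median at 24 h (median -0.37), and 5 of 7 at 48 h (median -0.14). A probe was present for 9 genes of this role, and Acads and Hadh were left out of the comparison. Both lay above that median at 24 h, at 0.22 and 0.29. Acads was at the floor in unconditioned medium at 48 h only, and Hadh on both 24 h arrays. Acaa2 had levels of 20400 in unconditioned against 9070 in conditioned medium at 24 h, and 18800 and 9760 at 48 h, with 16400 and 20900 at time zero. Its log2 differences between the media were -0.88 and -0.57, where the larger design had -0.51 and -0.43. The labels do not say whether both designs received RNA from shared dishes. Cpt1b differed in sign at 24 h, with 0.41 on the smaller and -0.21 on the larger design. Ucp3 was the highest of the 16 there, at 1.17 and 1.07, and was at 0.02 and 0.36 on the larger design.

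**Figure D5:**
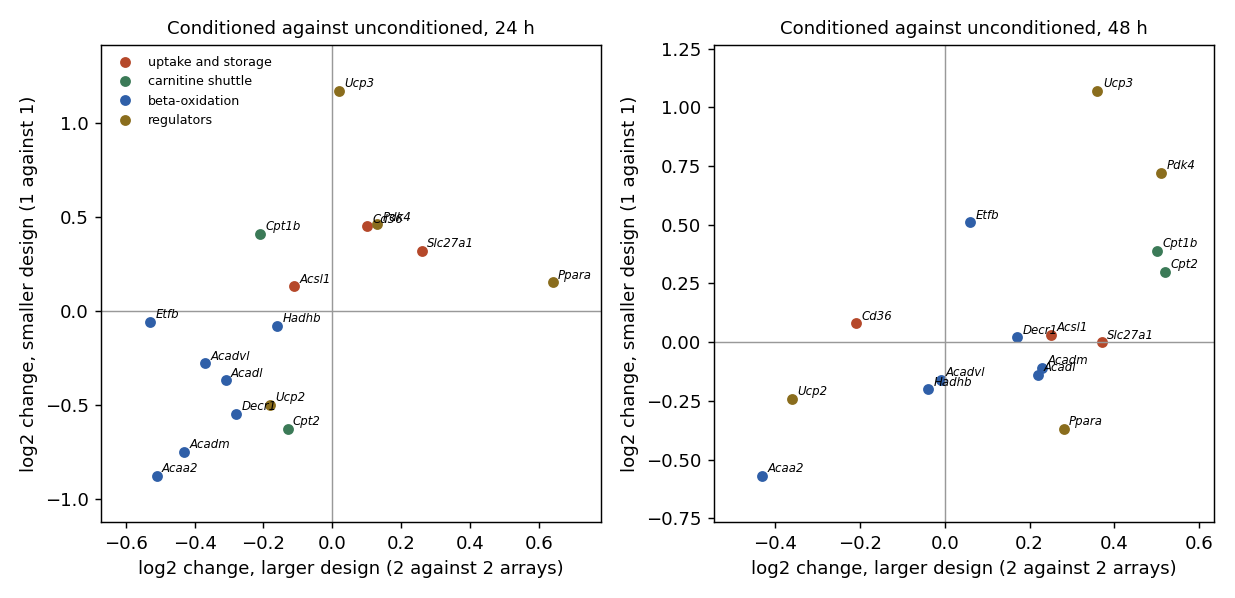
Log2 change in conditioned against unconditioned medium, relative to the median of all probes of each design, on the larger (2 against 2 arrays, x axis) and the smaller design (1 against 1, y axis) at 24 h (left) and 48 h (right), for 16 members coloured by role. All 7 beta-oxidation genes shown lie below 0 on both axes at 24 h.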

How the data were processed

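RNA labelled with biotin was hybridised to 1-colour CodeLink arrays, per the labels. The authors deposited linear fluorescence intensity for 33849 probes on the larger and 9906 on the smaller design; scanner, background correction and normalization are not given in the sources used here. In the deposited annotation 16753 probes of the larger design had 1 gene, 165 several and 16931 none.

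Each array was scaled to the table median, floored at 0.05 of it and taken to log2, and probes at or below the 30th percentile of mean level were left out, which kept 23694 (6934 on the smaller design). One limma model (version 3.58.1, R 4.3.3) covered all 5 groups of the larger design, with lmFit and then eBayes using an intensity trend, 7 residual and 10.4 prior degrees of freedom, and Benjamini-Hochberg adjustment over all probes. A gene was represented by its probe of highest mean. The number of arrays limits the precision. No pair of arrays of the same group was identical in values above the floor, and pairs across groups were not compared. The members and lists were chosen with earlier results of these data known. Values on every array are given for called members and, in a role without one, for the member with the smallest p for the medium over both times; Cd36, Lpl, Ppard, Hadh, Ech1, Eci1, Acaa2 and the markers named singly were added after their values were seen. Alternatives were other scalings, filters, floors and probe rules, no trend, and each array left out in turn; leaving out the 3 arrays that stood apart was chosen after seeing the data. The pipeline was tested on simulated data. Figures used matplotlib 3.10.9 in Python 3.11.15. Probe sequences and the promoters of 9 members were not analysed here.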

Additional observations from a re-analysis of the deposited data

How the results depend on the processing

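Counts of called members moved most with the scaling and with the arrays that stood apart. Between the media over both times the count of 1 became 6 with quantile normalization (2 higher, 4 lower; 921 probes in place of 218), 6 without the 3 arrays that stood apart (3 higher, 3 lower; 1849 probes), 3 with scaling to the 75th percentile, and 0 with no filter on level or no intensity trend. At 24 h the count of 0 became 3 with quantile normalization and 2 without the 3 arrays, and at 48 h 1 with quantile normalization, with scaling to the 75th percentile, with a filter at the 50th percentile and without the 3 arrays. Against time zero, unconditioned 24 h went from 2 to 4 with quantile normalization, to 0 with no filter and to 1 with a pseudocount or no intensity trend. Conditioned 24 h went from 3 to 10 with quantile normalization and to 5 with scaling to the 75th percentile. With the same 2 scalings unconditioned 48 h went from 1 to 8 and 5, and conditioned 48 h from 3 to 7 and 4. The added lower calls with these scalings were of Cd36 and of beta-oxidation genes, with Slc25a20 and Mlycd in unconditioned medium at 48 h. Calls over all probes rose too. With quantile normalization they went from 58 to 301 between the media at 24 h and from 35 to 172 at 48 h. From time zero they went from 193 to 543 in unconditioned and from 751 to 1997 in conditioned medium at 24 h. At 48 h they went from 686 to 2343 and from 1532 to 3085. Scaling to the 75th percentile gave 1919, 2106 and 3009 in the last 3 of these comparisons. Why these settings add calls was not tested.

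Leaving out 1 array gave 0 to 1 members for the medium over both times, 0 to 0 at 24 h, 0 to 1 at 48 h (1 without unconditioned 48 h replicate 3, or time zero replicate 4 or 6) and 0 to 0 for the difference between the times. It gave 0 to 2 for unconditioned 24 h, 2 to 3 for conditioned 24 h, 0 to 3 for unconditioned 48 h (0 without its replicate 3 and 3 without time zero replicate 4), 2 to 4 for conditioned 48 h and 0 to 0 for 48 h against 24 h in either medium. Calls over all probes moved as well. Without time zero replicate 4 they went from 686 to 1241 in unconditioned and from 1532 to 1807 in conditioned medium at 48 h. Without time zero replicate 6 they were 752 and 1932 there. Where a group was left with 1 array, that array was assumed to vary like the others. The 26 changes of single genes followed through the alternatives, of 5 members (Plin2, Angptl4, Acot1, Cpt1b and Acads) and 9 other pathway genes, did not turn direction in those that were run. They were followed because they were called or, for the 5 members, were the medium effect over both times. A turn was thus unlikely from the choice itself. Other members were compared in the scalings and without the 3 arrays, where some uncalled medium effects did turn at 48 h. Among them Cpt1a went from 0.02 to -0.10 with quantile normalization and to -0.25 without the 3 arrays. The latter also took Acadm from 0.23 to -0.12, Acsl1 from 0.25 to -0.06 and Ppara from 0.28 to -0.08. Of the 33 members 25 lay above the all-probe median between the media at 48 h, and 21 did with quantile normalization. No paired analysis was possible because replicate numbers follow the order of deposit and pair no samples.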
